A study of Mus musculus with 6 samples.

Results

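The genes examined here were 10 genes of hepcidin control, BMP signalling and iron handling, measured by RNA-seq in mouse hepatocytes 4 days after an AAV vector brought Sox4 into the liver. They were Hamp and Hamp2 (the hepcidin genes), Bmp6, Id1 and Smad7 (BMP signalling), Tfr2 and Tmprss6 (control of hepcidin at the hepatocyte surface), and Tfrc, Trf and Slc40a1 (transport of iron). They were chosen by name, with no measured value in the rule, but with earlier results of these data known. All 10 were among the 53599 gene symbols of the count table and among the 12691 genes with enough counts for a test.

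There were 2 groups of 3 libraries. Mice of the Sox4 group were given AAV8-TBG-HA-Sox4-P2A-Cre, a vector for HA-tagged mouse Sox4 joined by a P2A peptide to Cre recombinase, and mice of the empty vector (EV) group were given AAV8-TBG-Cre. Both vectors carried Cre, and in both the insert was driven by TBG, a hepatocyte promoter. Per the study's methods the mice were males that carried the Rosa-LSL-Cas9-EGFP allele, in which Cre switches on Cas9 and EGFP, and were 4 to 8 weeks old at injection into the retro-orbital sinus; the labels give the genotype as WT for EV and Sox4 for Sox4. Hepatocytes were released with liberase and enriched on Percoll, a density medium, and no sort for vector-bearing cells was described for these libraries. The methods give the vector dose of the Sox4 mice of this experiment and do not give that of the EV mice. The labels number the libraries within each group, and the study describes its RNA-seq groups as 3 animals each, so each library was taken as that of 1 mouse.

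Hepcidin is a small peptide hormone that hepatocytes secrete. It binds ferroportin, the product of Slc40a1 and the only known exporter of iron from cells, and brings about its breakdown, so that less iron enters plasma. Transcription of Hamp is raised by BMP6, which in liver comes mostly from endothelial cells and acts through BMP receptors, the co-receptor hemojuvelin and SMAD1/5/8 with SMAD4, and by interleukin 6 through STAT3. TFR2 and HFE report the iron load of transferrin to this pathway, the protease encoded by Tmprss6 (matriptase-2) restrains it by removing hemojuvelin, and SMAD7 feeds back on it.

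The library totals ran from 15090629 to 16964860 counts. Levels are in CPM, counts scaled to a library of 1000000, after the library sizes were adjusted by the trimmed mean of M-values method (TMM). The floor of 3 counts was 0.231 CPM or less in every library. Sox4 itself, the delivered gene, had 2, 0 and 3 counts in EV and 21697, 15097 and 11816 in Sox4. Over all genes tested, 55.1% passed an adjusted p of 0.05 (edgeR quasi-likelihood test with Benjamini-Hochberg adjustment, as for every adjusted p below unless another tool is named), 29.0% as higher and 26.0% as lower in Sox4, and the libraries of the groups did not overlap for 63.0% of genes. The median log2 fold change of all genes was 0.04 after TMM and 0.51 with library size alone, so each fold change is relative to the TMM scale. Markers of hepatocytes were high in both groups, with a summed level of 11 markers between 134400.0 and 161600.0 CPM in EV and between 100900.0 and 115000.0 in Sox4. Of the 11, 7 were lower in Sox4 (63.6%, against 26.0% of all genes). In libraries of bulk cells, fewer cells of a type and less RNA per cell cannot be told apart.

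Mice have a pair of hepcidin genes, Hamp and Hamp2, next to each other on chromosome 7. Hamp passed the test described below and Hamp2 did not, but a difference between their responses was not shown. Their upstream sequence is shown because the elements through which BMP and interleukin 6 signals act on Hamp lie there. Both are printed 5′ to 3′ from RefSeq on GRCm38.p6, a build other than the GRCm39 of the counts, and both are on the minus strand, Hamp at chr7:30944030-30944279 and Hamp2 at chr7:30924182-30924431, each 250 bases that end just before the annotated start. Capitals mark the BMP-responsive motif GGCGCC and the STAT motif TTCNNNGAA in Hamp and, in Hamp2, the STAT motif and the 6 bases that align with the BMP-responsive motif of Hamp.
Hamp: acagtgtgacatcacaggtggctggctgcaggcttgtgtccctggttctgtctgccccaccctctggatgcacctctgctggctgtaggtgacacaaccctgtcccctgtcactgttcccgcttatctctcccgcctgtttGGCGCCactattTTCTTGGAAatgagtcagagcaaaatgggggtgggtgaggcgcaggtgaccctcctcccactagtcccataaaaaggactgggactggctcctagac
Hamp2: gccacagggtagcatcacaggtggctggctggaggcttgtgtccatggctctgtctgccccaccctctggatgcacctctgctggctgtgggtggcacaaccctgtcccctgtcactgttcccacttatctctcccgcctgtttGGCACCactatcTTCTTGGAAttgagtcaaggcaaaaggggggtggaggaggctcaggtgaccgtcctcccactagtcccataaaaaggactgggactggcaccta
Of 247 aligned bases, 227 were identical (91.9%). In Hamp the BMP-responsive motif begins at base -109 and the STAT motif at -97, counted from the start. Hamp2 holds the STAT motif at -94, and the 6 bases opposite the BMP-responsive motif carry 1 mismatch, so GGCGCC is not among the letters of its window. Read on both strands in the 250 bases before the start, GGCGCC was found in 9.59% and TTCNNNGAA in 7.02% of 32851 RefSeq promoter windows. The first 50 bases after the start, which these windows also hold, were not searched. The BMP-responsive and STAT motifs do not overlap each other in Hamp. The SOX motifs ACAAT (27.7% of windows) and AACAAAG (5.03%) were in neither hepcidin window. Of the other genes with windows, Tfrc, which was lower in Sox4, held GGCGCC at -89 in a single window. Bmp6, which was higher, and Tfr2, which was lower, held neither GGCGCC nor TTCNNNGAA. The part of these motifs in the levels of the genes was not tested.

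The coding sequences of the pair have 249 bases each, of which 233 are identical (93.6%), and 14 of the differences lie in the last 75 coding bases, the part that encodes mature hepcidin. That part is shown from the GENCODE M21 transcripts because it holds these 14 differences, with the bases that differ in capitals.
Hamp: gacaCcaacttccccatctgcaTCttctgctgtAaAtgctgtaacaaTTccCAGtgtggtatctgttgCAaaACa
Hamp2: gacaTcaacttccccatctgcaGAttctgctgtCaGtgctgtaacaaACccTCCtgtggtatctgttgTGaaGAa
Of all stretches of 50 bases in the Hamp transcript, 16.6% were also found in a Hamp2 transcript, and of stretches of 100 bases none (0.0%). How reads that map to both genes were counted is not given in the sources used here, so the division of counts between Hamp and Hamp2 is uncertain to that extent. Gm44662, annotated across both genes on the opposite strand, had 0 counts in all 6 libraries.

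Hamp was higher in Sox4. Its counts were 1337, 4347 and 4114 in EV and 10105, 9696 and 12545 in Sox4, which gave levels of 103, 330 and 298 CPM against 506, 495 and 635 CPM. All 3 Sox4 libraries lay above the highest EV library, and EV replicate 1 lay well below the other EV libraries. The mean level was 244 ± 123 CPM (SD, n = 3) in EV and 545 ± 78.0 CPM in Sox4, a log2 fold change of 1.16 (adjusted p = 0.0467, SE 0.55). This call was near the threshold and did not hold when any of 4 libraries was left out, with an adjusted p of 0.0784 without EV replicate 3, 0.155 without Sox4 replicate 1, 0.0836 without Sox4 replicate 2 and 0.136 without Sox4 replicate 3. Without EV replicate 1 the log2 fold change was 0.78 and the adjusted p 0.00560, and limma-voom gave 1.33 with an adjusted p of 0.0552, while with no filter on low counts, which put 24036 genes in the test, the adjusted p was 0.191.

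Hamp2 did not pass the test. Its counts were 223, 411 and 172 in EV and 498, 140 and 733 in Sox4, or 17.2, 31.2 and 12.5 CPM against 24.9, 7.14 and 37.1 CPM. The groups overlapped, and the lowest and the highest libraries were both in Sox4. The log2 fold change was 0.19 (adjusted p = 0.827, SE 0.81), and leaving out single libraries moved it between -0.33 and 0.62.

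The difference between the genes of the pair was tested as the share of Hamp2 in the counts of both. The share was 14.3%, 8.64% and 4.01% in EV and 4.70%, 1.42% and 5.52% in Sox4, each with a 95% Wilson interval that covers counting error only, the widest of which ran from 12.7% to 16.1%. The mean was 8.98% ± 5.15 in EV and 3.88% ± 2.17 in Sox4, a difference of -5.10 percentage points (SE 3.23). An exact two-sided permutation test gave p = 0.3 for 3 libraries against 3, for which 0.1 is the smallest p that can be reached. The shares of the groups overlapped, and a difference between the responses of Hamp and Hamp2 was not shown.

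**Figure D1:**
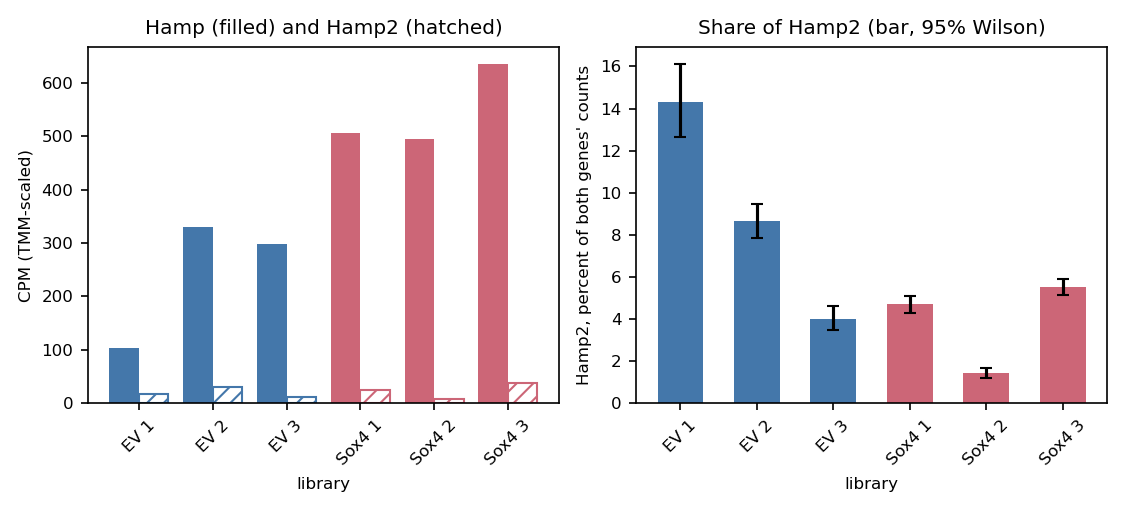
Left, level of Hamp (filled bars) and Hamp2 (hatched bars) in CPM in each library, EV in blue and Sox4 in red; right, Hamp2 as a percent of the counts of both genes, with 95% Wilson intervals. Hamp is at 495 CPM or more in each Sox4 library and at 330 CPM or less in each EV library, while Hamp2 is highest and lowest in Sox4 libraries, and its share runs from 1.42% to 14.3%.

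The BMP genes had the largest rises among the 10. Id1, a transcriptional inhibitor that is an immediate target of BMP receptors, had 31, 15 and 9 counts in EV and 1229, 1455 and 1522 in Sox4. Its level was 2.39, 1.14 and 0.653 CPM in EV and 61.5, 74.2 and 77.0 CPM in Sox4, so that the lowest Sox4 library was far above the highest EV library. The mean went from 1.39 ± 0.894 to 70.9 ± 8.26 CPM, and Id1 rose by a log2 fold change of 5.68 (adjusted p = 2.59e-06, SE 0.50). In the 14 alternatives tried, the log2 fold change of Id1 ran from 5.31 to 6.29, the latter without EV replicate 1.

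Smad7 encodes the inhibitory SMAD that BMP and TGF-beta signals induce and that blocks their receptors. Its counts were 101, 77 and 101 in EV and 710, 673 and 942 in Sox4, with no overlap. The mean level was 6.98 ± 1.01 CPM in EV and 39.2 ± 7.38 CPM in Sox4. Smad7 rose by a log2 fold change of 2.49 (adjusted p = 4.93e-06, SE 0.19), and this held in each of 14 alternatives.

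Bmp6, the iron-regulated ligand that acts on hepatocytes, was close to the floor in EV. Each EV library had fewer counts than the filter's minimum of 10, so Bmp6 entered the test only through its Sox4 libraries. It had 1, 4 and 3 counts in EV and 26, 22 and 40 in Sox4. The level was 0.0770, 0.303 and 0.218 CPM in EV and 1.30, 1.12 and 2.02 CPM in Sox4, and every Sox4 library lay above every EV library. The mean went from 0.199 ± 0.114 to 1.48 ± 0.478 CPM and the log2 fold change was 2.84 (adjusted p = 0.00186, SE 0.40), resting on 8 counts in EV and 88 in Sox4. Txndc5 is annotated over part of Bmp6 on the opposite strand, and the strand setting of the counts is not given in the sources used here. The level of Txndc5 was 180 ± 11.6 CPM in EV and 179 ± 14.2 CPM in Sox4 (log2 fold change -0.01, adjusted p = 0.952).

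Since Bmp6 in liver is known from endothelial cells, their markers are given beside it. The summed level of 12 endothelial markers was 27.9, 39.1 and 47.1 CPM in EV and 29.7, 56.3 and 66.6 CPM in Sox4. At the adjusted threshold 3 of the 12 were higher and 1 lower (25.0% and 8.33%, against 29.0% and 26.0% of all genes). None was at 0 in all libraries of a group. The ratio of the mean sums was 1.34. The summed level of 9 markers of stellate cells, another source of BMP ligands, was 10.9, 27.9 and 48.9 CPM in EV and 137, 146 and 92.4 CPM in Sox4. The ratio was 4.27, and the sums did not overlap. Most of the sum in Sox4 came from Reln, at 126, 117 and 50.8 CPM. Of 5 stellate markers tested 3 were higher (60.0%, against 29.0% of all genes), namely Reln, Rgs5 and Ecm1. Dcn and Colec11 overlapped between the groups and did not pass. The part of these cells in the Bmp6 result was not tested.

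**Figure D2:**
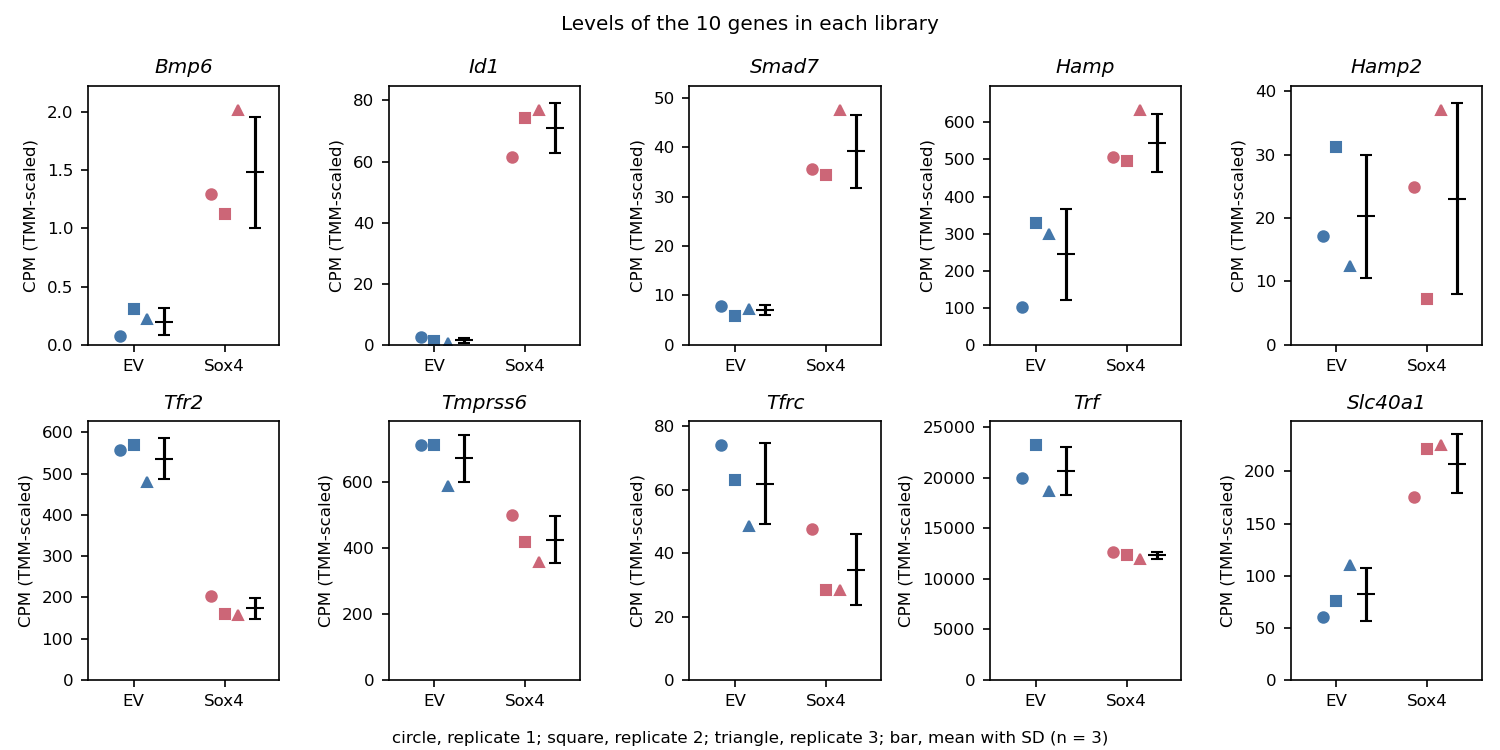
Level of each of the 10 genes in CPM on TMM-scaled libraries, for EV (blue) and Sox4 (red), with a symbol for each replicate and the mean with SD (n = 3) beside them. The groups are apart for 9 genes and overlap for Hamp2; those of Tfrc are apart by the narrow step from 47.6 to 48.7 CPM.

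Tfr2, the transferrin receptor of hepatocytes that senses iron-loaded transferrin, was lower in Sox4. It had 7256, 7517 and 6612 counts in EV and 4046, 3117 and 3120 in Sox4, or 558, 570.0 and 480 CPM against 203, 159 and 158 CPM. The highest Sox4 library was below every EV library. The mean level was 536 ± 49.2 CPM in EV and 173 ± 25.5 CPM in Sox4. Tfr2 fell by 1.63 in log2 terms (adjusted p = 1.79e-05, SE 0.14). It was the only one of the 4 lower genes to pass the test with library size alone, at a log2 fold change of -1.16.

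Tmprss6 encodes the membrane protease that removes hemojuvelin from the hepatocyte surface. Its levels were 713, 713 and 588 CPM in EV and 499, 417 and 358 CPM in Sox4, with no overlap. Tmprss6 fell by 0.66 in log2 terms (adjusted p = 0.00614, SE 0.17), from a mean of 671 ± 72.1 to 425 ± 70.8 CPM. The log2 fold change with library size alone was -0.19 and the adjusted p 0.317.

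Tfrc, the transferrin receptor through which most cells take up iron, had a level of 74.2, 62.9 and 48.7 CPM in the EV libraries and of 47.6, 28.4 and 28.4 CPM in those of Sox4. The groups were separated only by the step between EV replicate 3 and Sox4 replicate 1. The mean was 61.9 ± 12.8 CPM in EV and 34.8 ± 11.1 CPM in Sox4, a log2 fold change of -0.83 (adjusted p = 0.0139, SE 0.30). The call did not hold without Sox4 replicate 2 (-0.70, adjusted p = 0.0536) or with library size alone (-0.36, adjusted p = 0.20).

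Trf, which encodes the plasma iron carrier transferrin, took 1.75% of all counts in EV and 1.45% in Sox4. It had 259452, 306650 and 256878 counts in EV and 252578, 242827 and 235935 in Sox4. The mean level was 20620 ± 2380 CPM in EV and 12320 ± 356 CPM in Sox4. The Sox4 libraries lay together below the EV libraries. Trf fell by 0.74 in log2 terms (adjusted p = 0.00370, SE 0.10). With library size alone it did not pass (-0.27, adjusted p = 0.161).

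Slc40a1, which encodes ferroportin, was higher in Sox4. It had 779, 1001 and 1520 counts in EV and 3505, 4348 and 4458 in Sox4, or 60.0, 75.9 and 110 CPM against 175, 222 and 226 CPM. The lowest Sox4 library was above the highest EV library. The mean level was 82.0 ± 25.7 CPM in EV and 208 ± 27.9 CPM in Sox4. Slc40a1 rose by a log2 fold change of 1.34 (adjusted p = 7.09e-04, SE 0.28), passing in each of 14 alternatives.

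Ferroportin is also abundant in Kupffer cells, the macrophages of the liver, and their markers moved the same way. The summed level of 12 Kupffer markers was 15.2, 29.0 and 33.4 CPM in EV and 36.5, 70.8 and 79.6 CPM in Sox4, a ratio of means of 2.41. Of the 11 markers tested 6 were higher (54.55%, against 29.0% of all genes). Among the 6 were Cd5l (log2 fold change 1.81, adjusted p = 0.0129) and Marco (2.30, adjusted p = 0.00311). Clec4f, the most specific of the markers, was at 0.86 with an adjusted p of 0.113. No Kupffer marker was at 0 in all libraries of a group. The part of these cells in the Slc40a1 result was not tested.

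**Figure D3:**
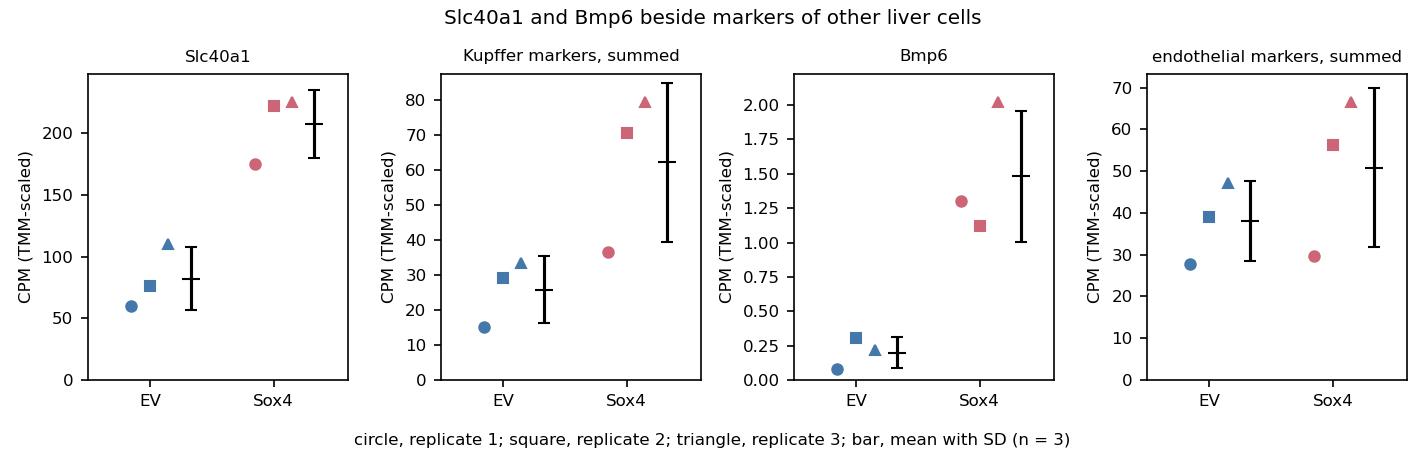
Levels in CPM of Slc40a1, of 12 Kupffer markers summed, of Bmp6 and of 12 endothelial markers summed, with a symbol for each replicate and the mean with SD (n = 3). The Kupffer sum is higher in every Sox4 library (36.5 CPM or more) than in every EV library (33.4 CPM or less), as is Slc40a1. The endothelial sums overlap between groups (27.9 to 47.1 CPM in EV, 29.7 to 66.6 CPM in Sox4), and the part of these cells in the levels of Slc40a1 and Bmp6 was not tested.

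In all, 5 of the 10 genes were higher, 4 were lower and 1 did not pass, against 29.0% higher and 26.0% lower over all genes tested, and the groups did not overlap for 9 of the 10, against 63.0%. The higher genes were the hormone gene Hamp, the ligand Bmp6, the targets Id1 and Smad7, and the exporter Slc40a1. Among these, Bmp6 was in the test only through its Sox4 libraries. The lower genes were Tfr2, Tmprss6, Tfrc and Trf, which sense, carry or take up transferrin iron or restrain hepcidin. Of 11 hepatocyte markers 7 were lower as well (63.6%), and the median log2 fold change of the 11 was -0.73. The part of a general fall of hepatocyte genes in these results was not tested. With library size alone in place of TMM none of the 9 changed direction, the 5 higher genes still passed and 1 of the 4 lower genes did. Under that scaling 50.9% of all genes were higher and 12.8% lower.

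**Figure D4:**
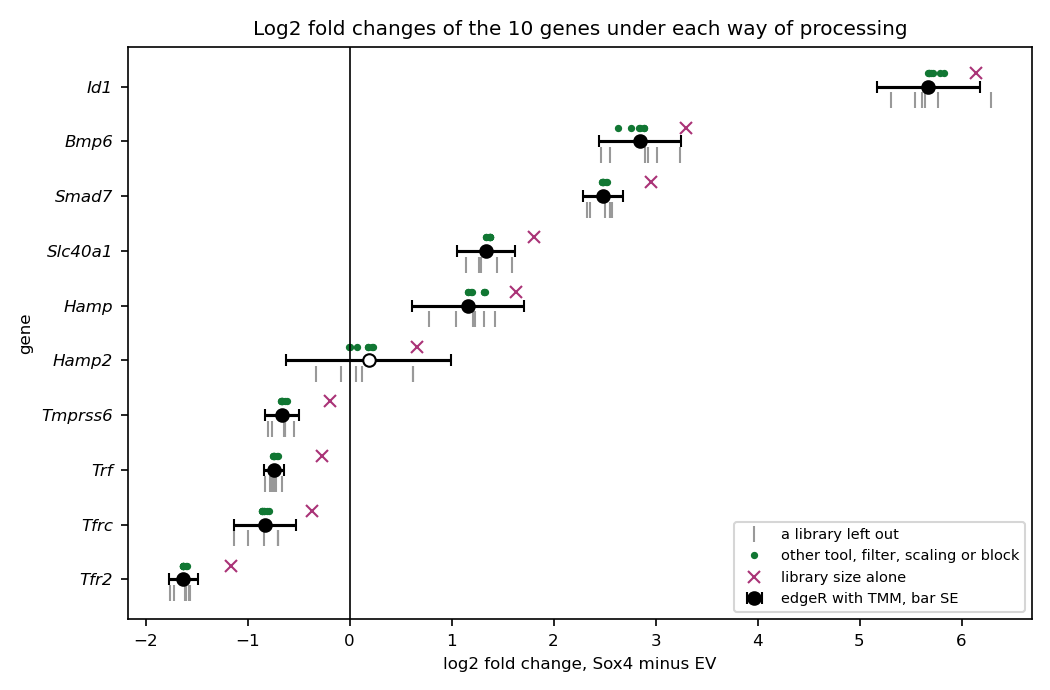
Log2 fold change (Sox4 minus EV) of each gene, with the SE as a bar and a filled circle where the adjusted p is under 0.05, beside the values with single libraries left out (grey), with other tools, filters, scalings or a block (green dots) and with library size alone (crosses). Id1 stays between 5.31 and 6.29, Hamp between 0.78 and 1.64, and Hamp2 alone crosses 0, while Tmprss6, Trf and Tfrc move toward 0 with library size alone.

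Levels were compared between genes only per length, as CPM per kilobase of GENCODE M21 exonic length. In EV the order by mean CPM per kilobase was Trf (6211), Hamp (594), Tmprss6 (200), Tfr2 (124), Hamp2 (34.8), Tfrc (10.01), Slc40a1 (9.11), Smad7 (1.54), Id1 (1.20) and Bmp6 (0.0511). The libraries of neighbours in that order did not overlap, except those of Tfrc with Slc40a1 and of Smad7 with Id1. In Sox4 the order was Trf (3711), Hamp (1330), Tmprss6 (127), Id1 (61.1), Tfr2 (39.9), Hamp2 (39.6), Slc40a1 (23.1), Smad7 (8.67), Tfrc (5.63) and Bmp6 (0.380). There the libraries of Hamp2 overlapped with those of Id1, Tfr2 and Slc40a1, and those of Smad7 with those of Tfrc. Id1 thus stood next to Smad7 near the bottom of the order in EV and between Tmprss6 and Tfr2 in Sox4, and Slc40a1 came to stand above Tfrc beyond the spread of the libraries.

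By the Pearson correlation of log2 CPM over the 6 libraries, the genes whose pattern was most like that of Hamp among 7943 genes compared were Dna2 (r = 0.987), Elp3 (0.985), Ddx51 (0.983), Tsc22d2 (0.983) and Synj1 (0.981). The points of such a correlation share library and group and carry no p. Dna2, for example, was at 8.39, 12.8 and 13.3 CPM in EV and 16.9, 17.4 and 17.6 CPM in Sox4.

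Other genes of the pathway were read from 11 lists by role, which were also chosen with earlier results of these data known. They held 162 genes in all apart from the 10, of which 141 were tested. Of these, 34 were higher and 55 lower. In the lists of BMP signalling 19 of 41 tested genes were higher (46.3%, against 29.0% of all genes) and 7 lower (17.1%, against 26.0%), with a median log2 fold change of 0.42 against 0.04 for all genes. In the lists of iron and heme handling 7 of 73 were higher (9.59%) and 36 lower (49.3%), with a median of -0.52. With library size alone the iron and heme lists had 17 higher and 17 lower (23.3% each, against 50.9% and 12.8% of all genes), and the BMP lists 27 higher and 4 lower (65.9% and 9.76%).

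**Figure D5:**
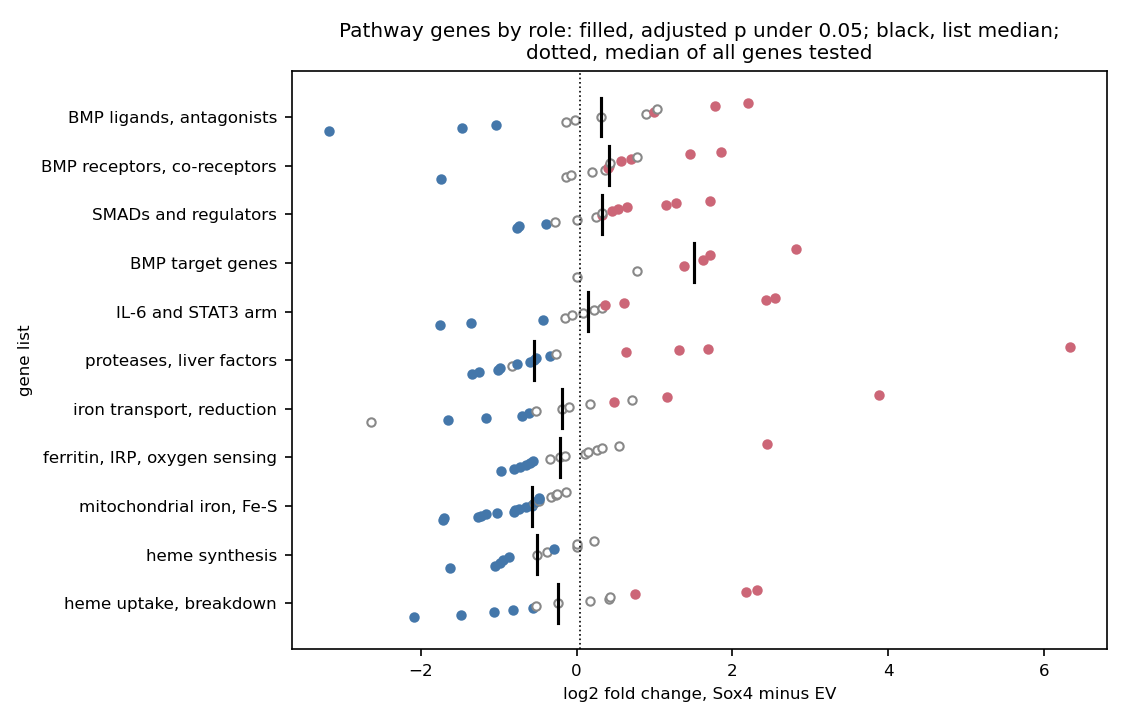
Log2 fold change (Sox4 minus EV) of each tested gene in the 11 lists, filled red where higher, filled blue where lower and open where the adjusted p is 0.05 or more, with the list median as a black bar and the median of all genes (0.04) dotted. The median of the BMP target genes is 1.504, those of mitochondrial iron and Fe-S genes and of heme synthesis are -0.58 and -0.51, and St14 is the point at 6.34.

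Among BMP target genes other than Id1 and Smad7, 4 of 6 tested were higher (66.7%, against 29.0% of all genes) and none lower by edgeR. For these, as for the mitochondrial and heme synthesis lists described below, where none was higher, the count of the missing direction was also 0 at an unadjusted p under 0.05 and by DESeq2 and limma-voom, though with library size alone 2 heme synthesis genes were higher. Id3, an inhibitor of the same family as Id1, rose by a log2 fold change of 2.82 (adjusted p = 9.12e-04, SE 0.46), from 24.6 ± 12.8 to 173 ± 37.3 CPM. Smad6, the other inhibitory SMAD, rose by 1.72 (adjusted p = 0.00111), Id2 by 1.62 (adjusted p = 2.18e-04) and Atoh8, a factor reported to act on Hamp, by 1.38 (adjusted p = 0.00361). Smad9 did not pass, with 6.23, 14.8 and 16.8 CPM in EV and 6.91, 9.49 and 21.5 CPM in Sox4, nor did the decoy receptor gene Bambi (0.77, adjusted p = 0.104). Some genes were too low to be tested. Hey1 had 0 counts in each EV library and 10, 12 and 17 in Sox4, and Id4 had 1, 0 and 1 against 9, 15 and 45.

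Of the ligands and their antagonists, 11 of 18 were tested, with 3 higher and 3 lower. These shares, 27.3% each, were near the 29.0% and 26.0% of all genes. Bmp7 rose by a log2 fold change of 2.20 (adjusted p = 0.00158) and Inhba, an activin subunit, by 1.78 (adjusted p = 3.30e-05), with 107, 143 and 141 counts in EV and 587, 586 and 819 in Sox4. Twsg1, which binds BMPs together with chordin, rose by 0.99 (adjusted p = 2.28e-04). Chrd, the gene of chordin, fell by 1.04 (adjusted p = 0.00805), though not with library size alone (adjusted p = 0.0878), and Fgl1, a liver-secreted protein that opposes BMP6, fell by 1.47 (adjusted p = 1.55e-04). Bmp2, the other ligand of the iron pathway, was at 1.23, 0.607 and 2.61 CPM in EV and 1.95, 3.37 and 2.99 CPM in Sox4 (adjusted p = 0.144). Without EV replicate 3 the list had 5 higher genes.

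Of 13 tested receptors and co-receptors 6 were higher and 1 lower (46.15% and 7.69%, against 29.0% and 26.0% of all genes). With library size alone, where 50.9% of all genes were higher, 11 were higher. Of the 6, the receptor gene Bmpr2 did not pass without EV replicate 2 (adjusted p = 0.0569) or Sox4 replicate 2 (0.0526), and Fkbp1a, whose product binds type I receptors, without EV replicate 1 (0.0548) or 2 (0.0686). The lower gene was Hjv, which encodes hemojuvelin, the co-receptor that TMPRSS6 removes. Hjv had 1639, 1399 and 1220 counts in EV and 682, 572 and 640 in Sox4, or 126, 106 and 88.5 CPM against 34.1, 29.2 and 32.4 CPM, with no overlap. It fell by 1.74 in log2 terms (adjusted p = 9.98e-06, SE 0.16), and passed with library size alone. Among the higher genes were Zfyve16 (endofin, which brings SMAD1 to the receptor), with a log2 fold change of 1.85 (adjusted p = 5.41e-05), Rgmb (1.46, adjusted p = 6.51e-04), a relative of hemojuvelin, and the receptor gene Bmpr1a (0.70, adjusted p = 0.00227). Hfe, which acts with TFR2, was at 53.1 ± 8.18 CPM in EV and 48.5 ± 3.34 CPM in Sox4 (-0.13, adjusted p = 0.416), and the receptor gene Acvr1 at 14.3 ± 0.917 and 13.7 ± 0.801 CPM (-0.07, adjusted p = 0.699).

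All 14 SMADs and regulators were tested, with 7 higher and 3 lower. The 7 of 14 that were higher compare with 29.0% of all genes. The share that was lower, 21.4%, compares with 26.0% of all genes. Smad5, which carries the BMP signal, rose by a log2 fold change of 1.28 (adjusted p = 1.23e-05, SE 0.08), from 28.0 ± 2.53 to 68.1 ± 2.31 CPM, and its partner Smad4 by 0.53 (adjusted p = 0.00334). The SMAD repressors Skil and Ski rose by 1.15 (adjusted p = 5.08e-04) and 0.65 (adjusted p = 0.00175). Ppm1a, a SMAD phosphatase, fell by 0.76 (adjusted p = 2.76e-04), and Ctdsp1, a further phosphatase of SMADs, by 0.74 (adjusted p = 0.00342), the latter not with library size alone (adjusted p = 0.166). Ctdsp2 fell by 0.40 (adjusted p = 0.0373) in a call that 4 libraries decided, with an adjusted p of 0.125 without EV replicate 1, 0.0534 without EV replicate 2, 0.0718 without Sox4 replicate 2 and 0.120 without Sox4 replicate 3, and it turned to 0.07 with library size alone. With every library left out in turn, 5 of the 7 higher and 2 of the 3 lower calls held each time.

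Of the inflammatory arm of Hamp control 12 genes were tested, with 4 higher and 3 lower. These shares, 33.3% and 25.0%, were near the 29.0% and 26.0% of all genes. Socs3, the feedback inhibitor that STAT3 induces, had 101, 42 and 73 counts in EV and 847, 528 and 515 in Sox4 and rose by a log2 fold change of 2.55 (adjusted p = 1.94e-04, SE 0.43). The receptor genes Lifr and Il6ra fell by 1.75 (adjusted p = 1.32e-04) and 1.36 (adjusted p = 0.00104). Il6st, which encodes the shared receptor subunit gp130, fell by 0.43 (adjusted p = 0.0386) and turned to 0.04 with library size alone. Osmr, the oncostatin M receptor gene, had 1, 1 and 6 counts in EV and 14, 19 and 33 in Sox4 (adjusted p = 0.0134), and entered the test only through its Sox4 libraries. Jak2 rose by 0.60 (adjusted p = 0.0125). Osmr did not pass without EV replicate 1 (adjusted p = 0.0520) or 2 (0.0593), Jak2 without EV replicate 1 (0.0547) or Sox4 replicate 2 (0.0567), and Il6st without EV replicate 2 (0.0740) or 3 (0.133) or Sox4 replicate 1 (0.0823) or 2 (0.0986). Single libraries moved the count of higher genes, to 1 without EV replicate 1 and to 2 without EV replicate 2 or without Sox4 replicate 2, and Socs3 was the one that held each time.

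Of 15 proteases and liver factors that act on hepcidin or its gene, 4 were higher and 9 lower. That made 26.7% and 60.0%, against 29.0% and 26.0% of all genes. St14 encodes matriptase, a relative of matriptase-2. It had 2, 2 and 5 counts in EV and 391, 353 and 370 in Sox4, a log2 fold change of 6.34 (adjusted p = 3.23e-07, SE 0.28). St14 entered the test only through its Sox4 libraries. Its inhibitor gene Spint2 rose by 0.63 (adjusted p = 0.00302). Furin, whose protease cuts prohepcidin to hepcidin, fell by 1.25 (adjusted p = 2.37e-05, SE 0.07), from 334 ± 19.3 to 140 ± 9.40 CPM, and Pcsk6 by 0.98 (adjusted p = 5.57e-05). Cebpa, a factor that binds the Hamp promoter, fell by 1.34 (adjusted p = 9.02e-04), and Hnf4a by 0.60 (adjusted p = 0.00580), the latter not passing with library size alone (adjusted p = 0.452). Tfap4 fell by 1.01 (adjusted p = 0.0338), but not without EV replicate 1 (adjusted p = 0.152), Sox4 replicate 2 (0.109) or Sox4 replicate 3 (0.0810) or with library size alone (0.206). Usf1 rose by 1.32 (adjusted p = 4.59e-04) and Trp53 by 1.69 (adjusted p = 2.10e-05). In place of 9, 3 of the 15 genes were lower with library size alone, where 12.8% of all genes were lower.

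Of the genes of iron transport and reduction 13 of 18 were tested, with 3 higher and 4 lower. These shares, 23.1% and 30.8%, were near the 29.0% and 26.0% of all genes. Steap3, the ferrireductase of transferrin-bearing endosomes, fell by 1.65 in log2 terms (adjusted p = 5.76e-05, SE 0.22), from 59.6, 46.6 and 35.1 CPM in EV to 14.5, 15.2 and 15.4 CPM in Sox4. Prnp, the prion protein gene, whose product has ferrireductase activity, fell by 1.16 (adjusted p = 1.44e-04), and Slc11a2, the gene of the divalent metal transporter DMT1, by 0.61 (adjusted p = 0.00718), not passing with library size alone (adjusted p = 0.449). Lrp1, the receptor of heme bound to hemopexin, fell by 0.70 (adjusted p = 0.00176), and did not pass with library size alone either (adjusted p = 0.159). Slc39a8, a transporter of zinc, manganese and iron, rose by 0.49 (adjusted p = 0.00266). Slc22a17, a receptor of lipocalin 2, had 0, 3 and 0 counts in EV and 22, 27 and 23 in Sox4 (adjusted p = 0.00244), and entered the test only through its Sox4 libraries. Steap2, a ferrireductase gene, was at 5.002, 7.74 and 8.05 CPM in EV and 9.71, 10.7 and 26.1 CPM in Sox4, a log2 fold change of 1.16 (adjusted p = 0.0420). It did not pass without EV replicate 1, 2 or 3 (adjusted p = 0.147, 0.0937 and 0.0935) or without Sox4 replicate 3 (adjusted p = 0.0782, log2 fold change 0.56). Slc39a14, the main route of iron outside transferrin into hepatocytes, was at 213 ± 49.95 CPM in EV and 239 ± 31.0 CPM in Sox4 (adjusted p = 0.459), and the ferroxidase gene Cp at 1576 ± 188 and 1470 ± 162 CPM (adjusted p = 0.610). Heph, the membrane-bound ferroxidase gene, had 0 counts in each EV library and 12, 7 and 28 in Sox4 and was not tested.

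Of the genes of iron storage and iron-responsive control 15 were tested, with 1 higher and 6 lower. That made 6.67% and 40.0%, against 29.0% and 26.0% of all genes. Fth1, the heavy chain of ferritin, fell by 0.80 (adjusted p = 8.30e-04, SE 0.07), from 1748 ± 113 to 1005 ± 44.4 CPM, while Ftl1, the light chain, was at 2239 ± 333 CPM in EV and 1940 ± 399 CPM in Sox4 (-0.21, adjusted p = 0.388). Ncoa4, which takes ferritin to the lysosome, fell by 0.72 (adjusted p = 2.72e-04), and Aco1, the gene of iron regulatory protein 1, by 0.97 (adjusted p = 1.30e-04). Ireb2, the gene of iron regulatory protein 2, was at 133 ± 18.0 CPM in EV and 148 ± 17.9 CPM in Sox4 (adjusted p = 0.390). Egln3, an oxygen-sensing prolyl hydroxylase, rose by 2.45 (adjusted p = 1.78e-05, SE 0.27), from 378, 522 and 323 counts to 2923, 2987 and 4050. Without Sox4 replicate 1 the list had 3 higher genes. Aco1 was the one lower gene that passed with library size alone, where Fth1 had an adjusted p of 0.0557 and Ncoa4 of 0.0520.

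Of the genes of mitochondrial iron and iron-sulfur cluster assembly 21 were tested, with none higher and 15 lower (71.4%, against 26.0% of all genes). Cisd1, the outer membrane protein mitoNEET, fell by 1.71 (adjusted p = 3.30e-06, SE 0.09), from 140 ± 11.8 to 42.8 ± 3.37 CPM. Bola3 fell by 1.70 (adjusted p = 8.00e-06, SE 0.12) and Iscu, the scaffold on which clusters are built, by 1.26 (adjusted p = 2.15e-05, SE 0.11). Slc25a28, mitoferrin 2, which brings iron into mitochondria, fell by 1.23 (adjusted p = 0.00183). With library size alone, where 12.8% of all genes were lower, 6 of the 15 still passed as lower. With every library left out in turn 14 of the 15 held each time.

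In heme synthesis 11 genes were tested, with none higher and 6 lower (54.55%, against 26.0% of all genes). With library size alone, where 50.9% of all genes were higher, 2 genes (Alad and Ppox) were higher. Abcb10 fell by 1.63 (adjusted p = 1.10e-05, SE 0.13), Cpox by 1.05 (adjusted p = 0.00115), Urod by 0.94 (adjusted p = 1.01e-04), and Tmem14c by 0.99 (adjusted p = 5.52e-04), and these 4 also passed with library size alone. Fech, which puts iron into the heme ring, was at 212 ± 12.5 CPM in EV and 173 ± 7.51 CPM in Sox4 (-0.29, adjusted p = 0.0497), and with any of the 6 libraries left out it did not pass (adjusted p of 0.0593, 0.117 and 0.135 without EV replicates 1, 2 and 3 and of 0.0797, 0.0823 and 0.0823 without Sox4 replicates 1, 2 and 3), while with library size alone it turned to 0.17. Alas1, the rate-limiting enzyme in liver, varied within the groups, with 63.0, 387 and 483 CPM in EV and 199, 475 and 418 CPM in Sox4 (adjusted p = 0.828). Alas2, the enzyme of the erythroid lineage, stood in the list of erythroid markers. It had 1633, 1398 and 1274 counts in EV and 292, 215 and 81 in Sox4, and fell by 3.45 in log2 terms (adjusted p = 6.87e-04, SE 0.56). Of the erythroid markers Slc4a1 was at 0 in all 6 libraries and no globin gene exceeded 22 counts in a library. Alas2 and Klf1 made up most of the summed level of 10 erythroid markers. That sum lay between 95.8 and 129 CPM in the EV libraries and between 5.67 and 16.2 CPM in those of Sox4. The globin genes Hba-a1 and Hbb-bs, too low to be tested, went the other way. Hba-a1 had 2, 2 and 2 counts in EV and 4, 11 and 8 in Sox4. Hbb-bs had 3, 0 and 5 counts in EV and 13, 22 and 9 in Sox4.

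In the uptake and breakdown of heme 13 genes were tested, with 3 higher and 5 lower. That made 23.1% and 38.5%, against 29.0% and 26.0% of all genes. Hmox1, the inducible heme oxygenase, which frees iron from heme, rose by a log2 fold change of 2.32 (adjusted p = 1.12e-05, SE 0.21), from 5.31, 3.49 and 3.34 CPM to 19.6, 20.1 and 20.8 CPM. Flvcr2, a heme-binding transporter of the FLVCR family, had 46, 68 and 43 counts in EV and 351, 186 and 517 in Sox4, a log2 fold change of 2.17 (adjusted p = 0.00131), and Slc48a1, which moves heme out of lysosomes, rose by 0.75 (adjusted p = 8.11e-04). Hmox1 is also expressed by Kupffer cells, whose summed markers were higher in Sox4, and their part was not tested. Of the plasma scavengers of hemoglobin and heme, Hp fell by 2.09 in log2 terms (adjusted p = 2.31e-05, SE 0.22), from 2962 ± 86.2 to 698 ± 177 CPM, and Hpx by 1.06 (adjusted p = 6.79e-04, SE 0.16), from 4898 ± 703 to 2348 ± 312 CPM. Ambp, whose product also binds heme in plasma, was at 2371 ± 90.3 CPM in EV and 2672 ± 524 CPM in Sox4 (0.17, adjusted p = 0.419). Abcg2, an exporter of heme and porphyrins, fell by 1.48 (adjusted p = 9.35e-06), from 115 ± 12.2 to 41.2 ± 3.07 CPM. Without Sox4 replicate 2 the list had 3 lower genes.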

How the data were processed

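RNA-seq was done on enriched hepatocytes, 3 libraries each of EV and Sox4. Reads were aligned by the authors to GRCm39 with STAR (2.7.10b in the submitters' processing notes) and assigned to genes with featureCounts 2.0.1, which gave the raw counts deposited. The strand setting, annotation release and treatment of reads with several matches are not given in the sources used here. The authors also deposited a normalized signal, in which each library's counts were scaled by its median-of-ratios factor, and this was used only as an alternative (limma on log2 values with a pseudocount of 1). Floors and Wilson intervals cover counting error only.

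The main test, in R 4.3.3, was the robust quasi-likelihood test of edgeR 4.0.16 with TMM and no covariate, after filterByExpr with a minimum count of 10 and a total of 15. Genes with fewer than 10 counts in every EV library, among them Bmp6, St14, Slc22a17, Osmr and Epcam, passed this filter only through their Sox4 libraries. Adjustment followed Benjamini and Hochberg and covered the 12691 genes that passed. DESeq2 1.42.0 and limma 3.58.1 (voom) were alternatives, as were other scalings and filters, a replicate block and leaving out each library. SEs refer to the difference in mean log2 CPM, with 2 as prior count. The code was tested on simulated data. Libraries within a group differed beyond counting error (chi-square per degree of freedom of 17.6 or more). Exonic lengths and overlaps came from GENCODE M21 and promoter windows from RefSeq, which held windows for 5 of the 10 genes, all matched by symbol. The 10 genes and the pathway and marker lists were chosen with earlier results of these data known. The text names all 10 genes and, from each list, every gene past the threshold where these were 6 or fewer, otherwise the 3 with the largest change in each direction, plus genes whose role it describes, except that some list members are counted in the totals but not reported here.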

Additional observations from a re-analysis of the deposited data

How the results depend on the processing

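Of 139 fold changes of the 10 genes under the alternatives, 126 kept their direction and their side of the threshold and 10 kept the direction but no longer passed (Hamp, Tfrc, Trf and Tmprss6, with values beside the results). Hamp2 changed sign in 3, to -0.0049 with limma on the deposited normalized values, to -0.086 without EV replicate 3 and to -0.33 without Sox4 replicate 3, and leaving out each library gave it from -0.33 to 0.62. The difference in the Hamp2 share kept its sign in all 8 alternatives. Of 336 counts of genes, 314 stayed within 1.5 times. Library size alone gave 1 lower gene of the 10 in place of 4, and with it 50.9% of all genes were higher and 12.8% lower. In the lists it gave 11 higher receptors (6), 1 lower SMAD regulator (3), 5 higher and 2 lower transport genes (3 and 4), 5 higher and 1 lower storage genes (1 and 6), 6 lower mitochondrial genes (15), 2 higher heme synthesis genes (0), 5 higher and 3 lower heme breakdown genes (3 and 5), 7 higher inflammatory genes (4) and 3 lower proteases and factors (9). With no filter the ligands had 5 higher genes (3) and the storage list 2 (1). Leaving out each library gave from 3 to 5 higher ligands, from 1 to 3 higher storage genes, from 3 to 7 lower heme breakdown genes and from 1 to 4 higher inflammatory genes. The causes were not tested.

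The replicate numbers were not taken to pair the libraries. Deviations of libraries with the same number had correlations of 0.273, -0.0898 and 0.131, and those of libraries with different numbers ran from -0.272 to 0.177. Whether the libraries were paired was not tested. A fit with the replicate number as a block gave 3862 higher and 3500 lower genes in place of 3684 and 3306. In it the storage list had 2 higher genes in place of 1 and Atoh8 did not pass, while each of the 9 genes past the threshold passed with the block as well. Depth limits Bmp6, which had 8 counts over the 3 EV libraries and was not among the genes tested at a mean count of at least 50.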

Other observations

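Libraries of a group differed in Arntl, a clock gene, and in Alas1, and these values were picked after they were seen. Arntl was at 41.9, 23.7 and 11.7 CPM in EV and 22.5, 4.999 and 15.9 CPM in Sox4, with a log2 fold change of -0.83 (edgeR adjusted p = 0.337). EV replicate 1 had the highest level of Arntl and the lowest levels of Alas1 (63.0 CPM against 387 and 483 CPM in the other EV libraries) and of Hamp (103 CPM against 330 and 298 CPM). In Sox4 the lowest level of Arntl was in replicate 2, which had the highest level of Alas1 (475 CPM), while Hamp there, at 495 CPM, lay next to the 506 CPM of replicate 1. The part of these differences in the Hamp result was not tested.

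Scara5, a ferritin receptor, had 69, 60 and 319 counts in EV and 26, 68 and 10 in Sox4, a log2 fold change of -2.64 (adjusted p = 0.0510), with EV replicate 3 far above the rest. Some markers of biliary cells were higher in Sox4 beside these genes, among them Spp1 (log2 fold change 2.89, adjusted p = 2.99e-06) and Epcam (4.05, adjusted p = 6.38e-04), while Sox9 (0.23, adjusted p = 0.618) did not pass. Of the markers of stellate cells, Rgs5 was higher (2.48, adjusted p = 0.0107).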
